A study of Homo sapiens with 4 samples.

Results

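The genes of telomere protection and maintenance were followed here as a set of 10 genes, TERF1, TERF2, TERF2IP, TINF2, ACD, POT1, ATRX, DAXX, DKC1 and TERT. They were chosen by gene symbol, for their roles at the telomere, with earlier results of these data known. They are 10 of the 15221 genes with a value in the RNA-seq tables. The libraries came from PANC-1, an established human pancreatic ductal adenocarcinoma cell line, and from PZT-2, a clone of PANC-1 in which the histone variant H2A.Z was knocked down. PZT-2 carries lentiviral short hairpin RNAs, driven by the U6 promoter, against H2A.Z.1 and against both isoforms of H2A.Z.2, and was selected with puromycin. PANC-1 was the parental line without a vector, and both lines were at passages 12 to 13. Each line had 2 libraries, and the study compared them to find the genes that depend on H2A.Z. PZT-2 is 1 clone, so the knockdown, the vector, the selection and the history of that clone cannot be told apart. A scrambled hairpin line was not analysed here.

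Shelterin is the protein complex that caps the ends of human chromosomes and keeps them from being repaired as broken DNA. TERF1 and TERF2 bind the duplex telomere repeat, TERF2IP (RAP1) rides on TERF2, TINF2 (TIN2) ties both to ACD (TPP1), and ACD carries POT1, which binds the single-stranded overhang and helps to recruit telomerase. Telomerase adds repeats with the reverse transcriptase TERT on an RNA template that dyskerin, the product of DKC1, stabilises. ATRX and DAXX together place the histone variant H3.3 at telomeres and other repeats, and loss of either is known in pancreatic neuroendocrine tumours and in cells that lengthen telomeres by recombination.

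Expression of ATRX, DKC1 and TINF2 fell in PZT-2, and none of the other 7 genes passed the test. The median log2 fold change of the 10 genes, PZT-2 against PANC-1, was -0.26, beside 0.00 over all 15101 genes tested. It was -0.076 without PANC-1 replicate 2, with 5 genes below 0 and 5 above, and -0.10 and -0.11 in limma on log2 TPM. Over the 9 genes other than TERT, a choice made after the values were seen, it was -0.20, with -0.32 without PANC-1 replicate 1, -0.36 from the most abundant transcript of each gene, and -0.14 in limma. The 3 genes that fell are 3 of the 10 called lower at an adjusted p under 0.05 in the edgeR quasi-likelihood fit, against 13.7% of all genes tested. No member was called higher, against 14.7% of all genes, and calls in either direction made up 28.4% of them. DESeq2 also called 0 members higher, limma on log2 TPM called 1 (DAXX), and in edgeR TERF2IP and DAXX were higher at an unadjusted p under 0.05. At that level stood 7 of the 10, against 40.6% of all genes. By the libraries alone, both PZT-2 values lay below both PANC-1 values for 5 members (32.9% of all genes), above them for 3 (33.3%), and overlapped for POT1 and TERT. The libraries of 66.3% of all genes did not overlap in 1 direction or the other. ATRX and TINF2 are genes that the study itself named as lower from these libraries, so their direction here is not independent evidence.

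**Figure D1:**
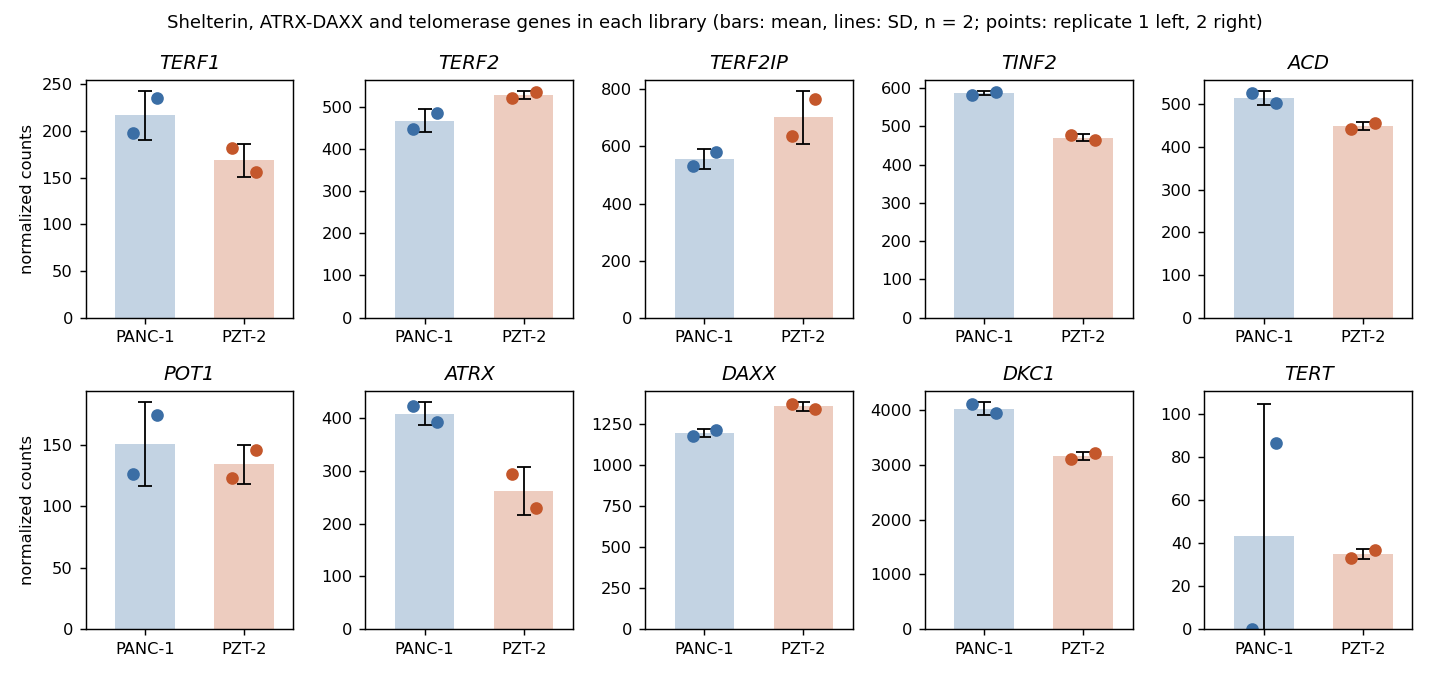
Normalized counts of the 10 genes in each library, with the mean (bar) and SD (line) of the 2 PANC-1 and the 2 PZT-2 libraries on axes that start at 0. The points of ATRX, DKC1 and TINF2 lie lower in both PZT-2 libraries, the points of POT1 and TERT overlap, and TERT has a count of 0 in PANC-1 replicate 1.

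Depth was similar, between 12861292 and 15717325 estimated reads per library. The hairpin targets were checked first. H2AFZ, which encodes H2A.Z.1, stood at 6389 and 6034 normalized counts in PANC-1 and 2212 and 2259 in PZT-2. Its log2 fold change was -1.47 (adjusted p = 6.2e-05). H2AFV, which encodes H2A.Z.2, fell by 0.36 on the log2 scale (adjusted p = 0.0057), a smaller change whose call was kept in 13 of 15 alternative analyses. Of 10 ductal and epithelial markers 9 had a value, with a summed level of 7542 and 7663 TPM, a level per length of transcript scaled to the library, in PANC-1 and 4349 and 4249 in PZT-2. KRT8, KRT18 and KRT19 made up most of this sum and were lower in both PZT-2 libraries, while SOX9 was at 73.6 and 68.2 TPM in PANC-1 and 89.7 and 85.9 in PZT-2. Of 15 markers of immune, endothelial, stromal, acinar and islet cells 5 had a value, with a summed level between 129 and 137 TPM in the 4 libraries, most of it CD68. COL1A1 among them was at 10.5 and 11.7 TPM in PANC-1 and 3.83 and 3.03 in PZT-2. The part of these marker differences in the telomere results was not tested. In these bulk samples, fewer cells of a type and less RNA per cell cannot be told apart. The p-values rest on the spread between 2 libraries per line, with each gene's variance drawn towards that of all genes tested. An exact permutation test of 2 against 2 could not go below p = 0.333.

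For the starts of the 2 called genes with a promoter entry in RefSeq, TINF2 and DKC1, the 300 bases from 250 before to 50 after the start are shown, since these genes fell together. They were read on the gene's strand of GRCh38.p14, chr14:24242625-24242924 on the minus strand for TINF2 and chrX:154762614-154762913 on the plus strand for DKC1. Capitals mark, on either strand, a GC box, the core bound by ETS factors, a CCAAT box and a palindromic NRF1 element.
TINF2 promoter: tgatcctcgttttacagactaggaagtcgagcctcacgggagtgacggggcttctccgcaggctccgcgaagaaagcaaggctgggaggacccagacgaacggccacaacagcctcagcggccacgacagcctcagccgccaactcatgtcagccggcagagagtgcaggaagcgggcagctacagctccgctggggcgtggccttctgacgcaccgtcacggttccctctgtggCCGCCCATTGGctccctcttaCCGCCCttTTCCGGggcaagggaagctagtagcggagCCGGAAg
DKC1 promoter: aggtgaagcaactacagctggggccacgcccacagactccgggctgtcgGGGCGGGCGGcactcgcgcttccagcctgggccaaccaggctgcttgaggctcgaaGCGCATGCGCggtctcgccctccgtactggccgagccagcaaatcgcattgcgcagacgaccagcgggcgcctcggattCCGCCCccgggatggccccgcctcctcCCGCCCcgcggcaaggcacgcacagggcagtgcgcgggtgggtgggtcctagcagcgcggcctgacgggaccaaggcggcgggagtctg

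The TINF2 window held 2 GC boxes, 2 ETS cores and 1 CCAAT box, directly beside the first GC box. The DKC1 window held 4 GC boxes, the first 2 of which overlap, and 1 NRF1 element. Of all 35116 RefSeq promoter windows of this length, 45% held a GC box, searched as GGGCGG on both strands. The ETS core, searched as CCGGAA, was held by 17.2% of windows. The CCAAT box was held by 34.6% and the NRF1 element by 1.24%. Neither window held the letters of an E-box (CACGTG, in 7.26% of windows) or a TATA box (TATAAA, in 11.5%). The G and C content was 64% for TINF2 and 72.3% for DKC1, beside a median of 58.7% over all windows. These are matches of letters in a window and say nothing about binding in these cells. The table had an entry for 6 of the 10 genes, and the first of its 2 starts of TINF2 is shown.

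Among the genes of proteins that bind the duplex repeat, the estimates of TERF1 and TERF2 had opposite signs, and neither gene was called. TERF1, which restrains telomere elongation and helps replication through the repeat, was at 198 and 235 normalized counts in PANC-1 and 181 and 156 in PZT-2. Both PZT-2 values were below both PANC-1 values, but the gap between the nearest libraries was smaller than the spread within either line. The log2 fold change was -0.36 (95% interval -0.71 to -0.02, adjusted p = 0.106), short of the threshold. It passed without PANC-1 replicate 1 (adjusted p = 0.0365) and in none of the other 14 alternatives. GENCODE names 5 pseudogenes of TERF1, none of which had a value here, so reads shared with them could count towards TERF1.

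TERF2, which folds the end into the protective loop and blocks end joining, was at 448 and 486 normalized counts in PANC-1 and 521 and 535 in PZT-2. The libraries did not overlap, and the log2 fold change of 0.18 (95% interval -0.02 to 0.38) had an adjusted p of 0.169. TERF2IP was at 530.0 and 579 normalized counts in PANC-1 and 637 and 767 in PZT-2. The 2 PZT-2 libraries differed from each other more than the nearest PANC-1 library did from the lower of them. Its log2 fold change was 0.34 (95% interval 0.08 to 0.60, adjusted p = 0.0613), and it was called higher in 6 of 15 alternatives, with adjusted p between 0.0303 and 0.295. The gene overlaps KARS on the opposite strand, and the strand setting of the counting is not given in the sources used here.

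TINF2 is the hub that links the duplex-binding proteins with ACD and POT1. Its normalized counts were 583 and 591 in PANC-1 and 477 and 464 in PZT-2. The libraries of a line lay close together and the lines were separated by far more. Expression fell to 0.801 of the PANC-1 level, a log2 fold change of -0.32 (SE 0.0756, 95% interval -0.50 to -0.14, adjusted p = 0.0227). The fold change stayed between -0.34 and -0.30 when any 1 library was left out. The adjusted p rose to 0.0902 when PZT-2 replicate 1 was left out, to 0.125 when PZT-2 replicate 2 was, and to 0.0943 by DESeq2. The call was kept in 11 of 15 alternatives.

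ACD, which recruits telomerase through its TEL patch and holds POT1, was at 527 and 504 normalized counts in PANC-1 and 443 and 457 in PZT-2. The libraries did not overlap, yet its log2 fold change of -0.20 (95% interval -0.39 to -0.003) was not called at an adjusted p of 0.118 and was called in 0 of 15 alternatives. POT1 was at 126 and 174 normalized counts in PANC-1 and 123 and 145 in PZT-2. The libraries overlapped, and the interval of its log2 fold change, -0.63 to 0.29, spans no change and also a fall as large as that of TINF2. The sign of the POT1 estimate turned from -0.17 to 0.082 without PANC-1 replicate 2. The PANC-1 libraries differed from each other by more than the means of the lines did.

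Of the 6 shelterin genes, 1 was called lower (13.7% of all genes tested) and 0 higher (14.7%), with a median log2 fold change of -0.18. Per length, the summed level of the 6 was 148 and 159 TPM in PANC-1 and 151 and 160 in PZT-2, so the sums overlapped. TERF2IP had the largest rise of the 6, so a sum without it leans lower in PZT-2 by that choice. The 5 genes other than TERF2IP summed to 117 and 123 TPM in PANC-1 and 110.4 and 110.9 in PZT-2, which did not overlap. Within the sum, TERF2IP made up 21.5% and 22.6% of the sum in PANC-1 and 26.9% and 30.5% in PZT-2, whereas TINF2 made up 24.7% and 23.7% against 20.8% and 19.3%. Neither share overlapped between the lines.

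The ratio of genes of the same complex within a library does not depend on the scaling between libraries. On the TPM scale the ratio of TERF2IP to TINF2 was 0.870 and 0.952 in PANC-1 and 1.29 and 1.58 in PZT-2, so TERF2IP stood below TINF2 in one line and above it in the other. The ratio of TERF2 to TERF1 was 2.22 and 2.03 in PANC-1 and 2.84 and 3.34 in PZT-2. In contrast, the ratio of ACD to POT1 was 12.1 and 8.36 in PANC-1 and 10.4 and 9.07 in PZT-2, which overlapped. TERF2IP to TERF2, its anchor, was 1.64 and 1.65 against 1.70 and 1.99, a narrow gap. ACD to TINF2, which ties to it, was 1.30 and 1.25 in PANC-1 and 1.35 and 1.42 in PZT-2, also a narrow gap. TERF2IP and TINF2 share the complex but are not direct partners in the account above. That pair joins the largest rise among the shelterin genes to the called fall, so its separation follows from those values. The ratios carry no test.

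**Figure D2:**
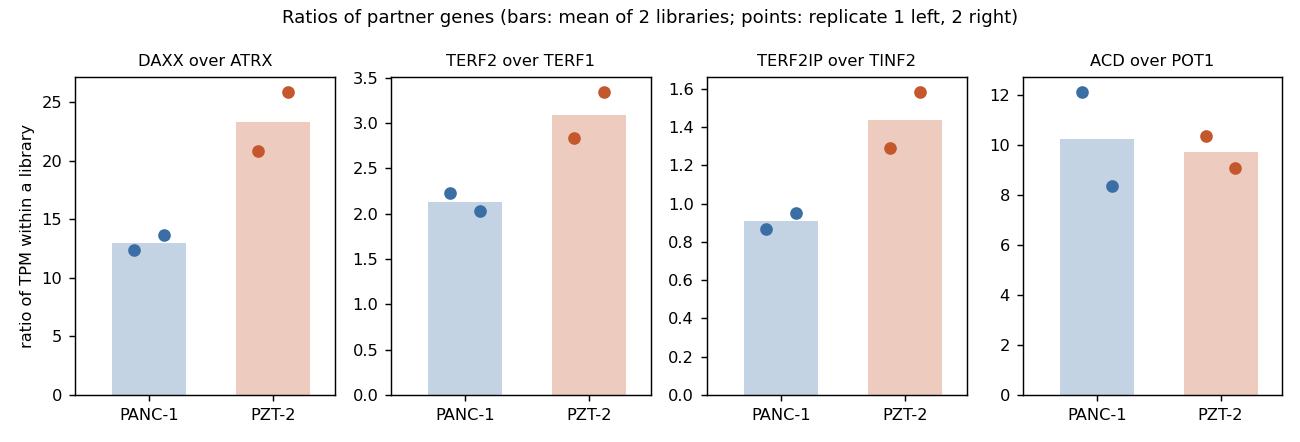
Ratios of TPM between genes of the same complex within each library, with bars at the mean of 2 libraries and axes from 0. DAXX to ATRX is 12.3 and 13.7 in PANC-1 and 20.8 and 25.8 in PZT-2, while ACD to POT1 overlaps between the lines.

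The estimates of the partners ATRX and DAXX had opposite signs, and only ATRX was called. ATRX, the remodelling ATPase of the pair, was at 424 and 394 normalized counts in PANC-1 and 294 and 230 in PZT-2. Both PZT-2 libraries were far below PANC-1, and they differed from each other by more than the PANC-1 pair did. Expression fell by 35.9%, a log2 fold change of -0.64 (SE 0.132, 95% interval -0.96 to -0.32, adjusted p = 0.0142), the largest change among the called members. ATRX kept its sign without any 1 library, with a range of -0.83 to -0.48, but the adjusted p was 0.0697 without PZT-2 replicate 2. It was 0.0713 and 0.0791 in limma on log2 TPM with pseudocounts of 1 and 0.1, and the call was kept in 11 of 15 alternatives.

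DAXX, the H3.3 chaperone, was at 1178 and 1210 normalized counts in PANC-1 and 1374 and 1339 in PZT-2. The libraries did not overlap, and its log2 fold change of 0.18 (95% interval 0.04 to 0.33) had an adjusted p of 0.0642. The ratio of DAXX to ATRX per length was 12.3 and 13.7 in PANC-1 and 20.8 and 25.8 in PZT-2. Neither PZT-2 library came near the PANC-1 values. ATRX was low per length in both lines, at 4.64 ± 0.147 TPM in PANC-1 and 3.09 ± 0.537 in PZT-2 (SD, n = 2).

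DKC1, the pseudouridine synthase that holds telomerase RNA and also modifies ribosomal RNA, was the most abundant of the 10 genes. It was at 4114 and 3950 normalized counts in PANC-1 and 3113 and 3218 in PZT-2. The lines were separated by several times the spread within either. Its log2 fold change was -0.35 (SE 0.0548, 95% interval -0.48 to -0.22, adjusted p = 0.0054), a level of 0.785 of that in PANC-1. The call was kept in 14 of 15 alternatives and lost without PZT-2 replicate 1 (adjusted p = 0.0575). DKC1 hosts the small RNA genes SNORA36A, SNORA56 and MIR664B in its introns.

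TERT, the catalytic subunit, could not be compared. It had 0 counts in PANC-1 replicate 1 and 96 in PANC-1 replicate 2, with 33 and 37 in the PZT-2 libraries. The 2 PANC-1 libraries lay on either side of PZT-2, and a count of 0 allows up to 3 counts in that library, by counting error only. The estimate followed the PANC-1 library kept, with TERT called lower without replicate 1 (adjusted p = 0.0048) and higher without replicate 2 (adjusted p = 3.35e-04). The fitted fold changes of TERT are therefore not read as a result, and a listed coding transcript, NM_001193376, was not analysed here.

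**Figure D3:**
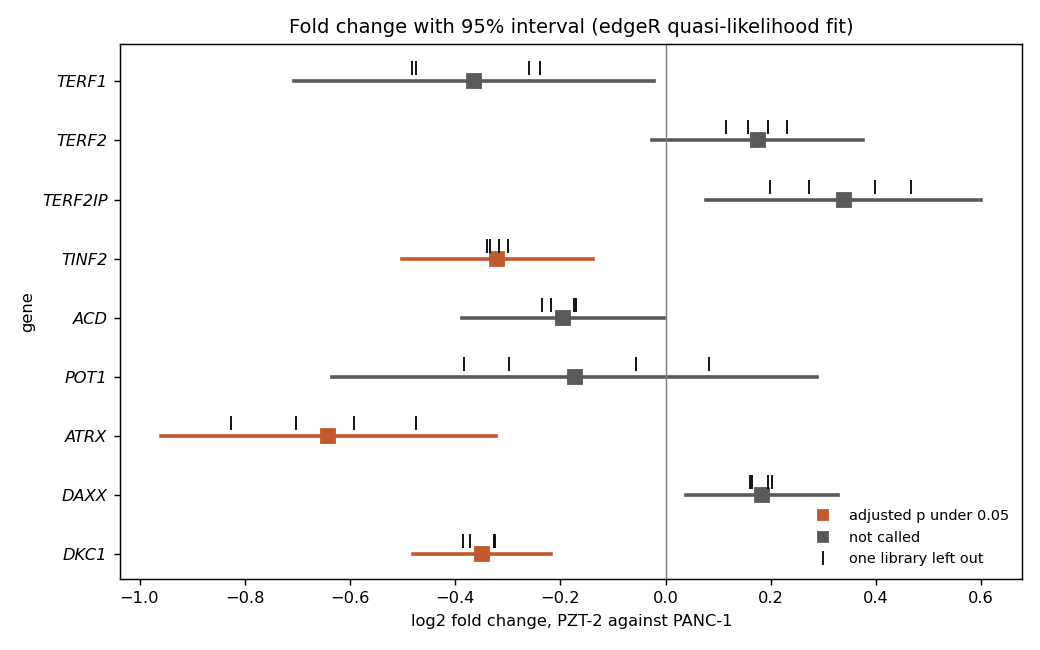
Log2 fold change of PZT-2 against PANC-1 with its 95% interval for 9 genes, and the estimates with 1 library left out as ticks; TERT is left out because its PANC-1 libraries disagree. TINF2, ATRX and DKC1 are called lower and their ticks all lie below 0, whereas the ticks of POT1 lie on both sides of it.

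Per length, the order of levels was nearly the same in both lines. In PANC-1 DKC1 led at 204 ± 1.41 TPM (SD, n = 2), followed by DAXX at 60.3 ± 2.47, ACD at 47.5 ± 0.369 and TINF2 at 37.2 ± 0.673. TERF2IP at 33.9 ± 2.79, TERF2 at 20.5 ± 1.60 and TERF1 at 9.71 ± 1.38 came next, and POT1 at 4.80 ± 1.20 and ATRX at 4.64 ± 0.147 overlapped. TERT came last. In PZT-2 the order differed at 1 place, where TERF2IP at 44.6 ± 5.68 TPM stood beside ACD at 43.1 ± 0.788, with overlapping libraries, and above TINF2 at 31.1 ± 0.504. POT1 and ATRX no longer overlapped there, at 4.46 ± 0.501 and 3.09 ± 0.537 TPM. Over all genes tested, the 10 genes ranged from the 23.5th to the 95.4th percentile of mean level.

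The transcripts behind the sums gave a less certain picture. The symbol table listed 27 transcripts of the 10 genes, 21 of them had counts, and 3 more were named through their accession. None of these 24 was called by edgeR at the transcript level (0.148% of all transcripts were), 4 had an unadjusted p under 0.05, and DESeq2 called 2 (against 14.4% of all transcripts). The 2 were NM_000489 of ATRX and NM_001363 of DKC1. NM_001363 carried between 93.8% and 95.6% of DKC1 per length in every library, and its log2 fold change of -0.37 was close to that of the gene. NM_000489 was the only ATRX transcript with counts, and NM_138270 was not analysed here.

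For TINF2, the transcript NM_012461 made up 79.9% and 89.9% of the level in PANC-1 and 85.4% and 78.0% in PZT-2, so its share overlapped between the lines. Its log2 fold change was -0.38 (edgeR adjusted p = 0.219). NM_001042594 of POT1 had 0 counts in PANC-1 replicate 1 and 39, 36 and 41 in the other libraries. The same library had no TERT counts, and how reads were divided between similar transcripts was not tested. For DAXX, NM_001141969 made up 76.9% and 63.5% in PANC-1 and 62.0% and 67.4% in PZT-2, which overlapped.

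ATRX and DKC1 are both on the X chromosome, where genes were lower in PZT-2 as a whole. The median log2 fold change of the 475 genes tested there was -0.29, and it stayed between -0.33 and -0.26 without any 1 library. Called lower were 36% of them and called higher 6.32%. DKC1 lay 0.06 below that median and 44.2% of X genes had a lower value, so its value was near the middle of its chromosome. ATRX lay 0.35 below the median and 20.2% of X genes had a lower value. Chromosome dosage in the clone was not measured, and a change of the X chromosome and a change of these genes cannot be told apart.

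TINF2 on chromosome 14 was 0.28 below the median of its chromosome, which was -0.04. TERF2, TERF2IP and ACD share chromosome 16, whose median was 0.00, and lay on both sides of it. TERF1 on chromosome 8 and DAXX on chromosome 6 lay away from medians of 0.01 and -0.02, and POT1 was 0.08 below that of chromosome 7. Each of these is a description, since neighbouring genes are not replicates.

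**Figure D4:**
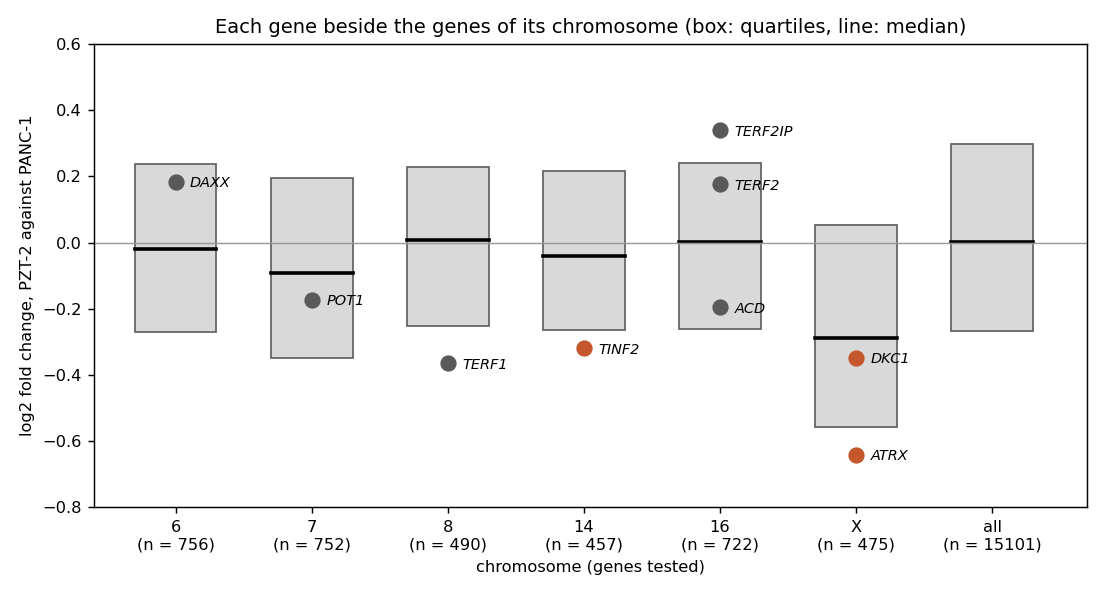
Log2 fold change of 9 genes beside the quartiles (box) and median (line) of all genes tested on the same chromosome, with all 15101 genes at the right. The box of the X chromosome is centred at -0.29, with DKC1 inside it and ATRX below it, whereas the median of chromosome 14 is -0.04 with TINF2 below its box.

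Around these 10 genes stand other telomere genes, in 6 lists drawn up by function. Of 93 tested, 20 were called lower and 14 higher, 36.6% in all, with a median of -0.06. Over all genes tested these shares were 13.7% lower, 14.7% higher and 28.4% in all. Of the calls in the lists 8 to 22 were lower and 5 to 16 higher when 1 library was left out, both lowest counts coming without a PZT-2 library. Among 13 genes of the telomerase particle and its assembly 1 fell and 3 rose, and the telomerase RNA gene TERC had no value here. RUVBL2, an ATPase of the R2TP assembly complex, fell from 3982 and 3738 normalized counts in PANC-1 to 2747 and 2689 in PZT-2, or by 0.51 on the log2 scale (adjusted p = 0.0019). Its partner RUVBL1 rose by a log2 fold change of 0.17 (adjusted p = 0.0451). SHQ1, the chaperone that holds dyskerin before it meets RNA, rose from 282 and 309 to 419 and 422 normalized counts (0.50, adjusted p = 0.0093). NOP10, which binds dyskerin in the mature particle, rose by 0.22 (adjusted p = 0.0418). In this fit DKC1 and RUVBL2 thus fell, while SHQ1, NOP10 and RUVBL1 rose. NOP10 kept its call in 9 of 15 alternatives and RUVBL1 in 10. SHQ1 and RUVBL1 are on chromosome 3, with a median of 0.43, and DKC1 is on the X chromosome, with a median of -0.29.

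The CST complex and DNA polymerase alpha-primase fill in the C-rich strand after telomerase. Of 7 genes 3 fell and 1 rose, or 57.1% called, beside 28.4% of all genes tested. DESeq2 called 1 fall and 1 rise, and the most abundant transcript of each gene gave 0 falls and 0 rises. POLA1, the catalytic subunit of polymerase alpha, went from 254 and 275 to 172 and 159 normalized counts (-0.68, adjusted p = 0.0070), and POLA2 fell with a log2 fold change of -0.25 (adjusted p = 0.0297). TEN1, a subunit of CST, went from 361 and 337 to 254 and 252 normalized counts (-0.46, adjusted p = 0.0142). The primase subunit PRIM2 rose by 0.38 (adjusted p = 0.0285).

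Among 16 partners and modifiers of shelterin 3 fell and 5 rose, or 50% called, beside 28.4% of all genes tested. Both limma fits gave 1 fall and 5 rises, and the most abundant transcript of each gene 0 falls and 3 rises. GNL3, the nucleolar GTPase nucleostemin, which binds TERF1, went from 726 and 857 to 1571 and 1606 normalized counts (log2 fold change 1.00, adjusted p = 8.0e-04). NEK7, a kinase that stabilises TERF1, went from 347 and 319 to 229 and 190 (-0.66, adjusted p = 0.0102). Both have reported roles on the TERF1 protein, whose gene did not pass the test.

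In telomere replication and end processing 7 of 20 genes fell and 1 rose, with 3 falls in both limma fits, and 4 or 3 falls when PZT-2 replicate 1 or 2 was left out. NBN, a subunit of the MRN complex that TERF2 brings to telomeres, went from 548 and 587 to 314 and 279 normalized counts (-0.94, adjusted p = 0.0013). RPA1, the single-strand binding protein that POT1 competes with, rose by 0.24 (adjusted p = 0.0276). Among 20 H3.3, PML and heterochromatin partners of ATRX and DAXX 5 fell and 2 rose. The share called was 40% in the replication list and 35% among these partners, beside 28.4% of all genes tested. CBX5, which encodes the heterochromatin protein HP1 alpha that binds ATRX, went from 3321 and 3717 to 2417 and 2156 normalized counts (-0.62, adjusted p = 0.0030). PML, the scaffold of the nuclear bodies that hold DAXX and ATRX, went from 674 and 686 to 1020 and 994 (0.57, adjusted p = 0.0019).

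Of 17 genes of recombination-based telomere lengthening 1 fell and 2 rose, or 17.6% called, beside 28.4% of all genes tested. ZRANB3, a fork-remodelling translocase, went from 140 and 141 to 94.6 and 94.9 normalized counts (-0.57, adjusted p = 0.0249), and FANCD2, of the Fanconi anaemia pathway, rose by 0.44 (adjusted p = 0.0127). Of the 16 genes named from the lists, RUVBL2, GNL3, NBN, CBX5 and PML kept their call in all 15 alternatives. The other 11 lost it without a PZT-2 library, as did the 3 called members. Some also lost it elsewhere, as POLA2 and ZRANB3 did by DESeq2 and in both limma fits. POLA1 and FANCD2 lost it from the most abundant transcript.

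Of the 7 list genes tested on chromosome 3 none fell and 5 rose (FANCD2, GNL3, RUVBL1, SHQ1 and SIAH2). SIAH2 is named here after its values were seen. The median of the 835 genes tested on that chromosome was 0.43, and 48.3% of them were called higher. The part of this chromosome-wide difference in the results of the lists was not tested.

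**Figure D5:**
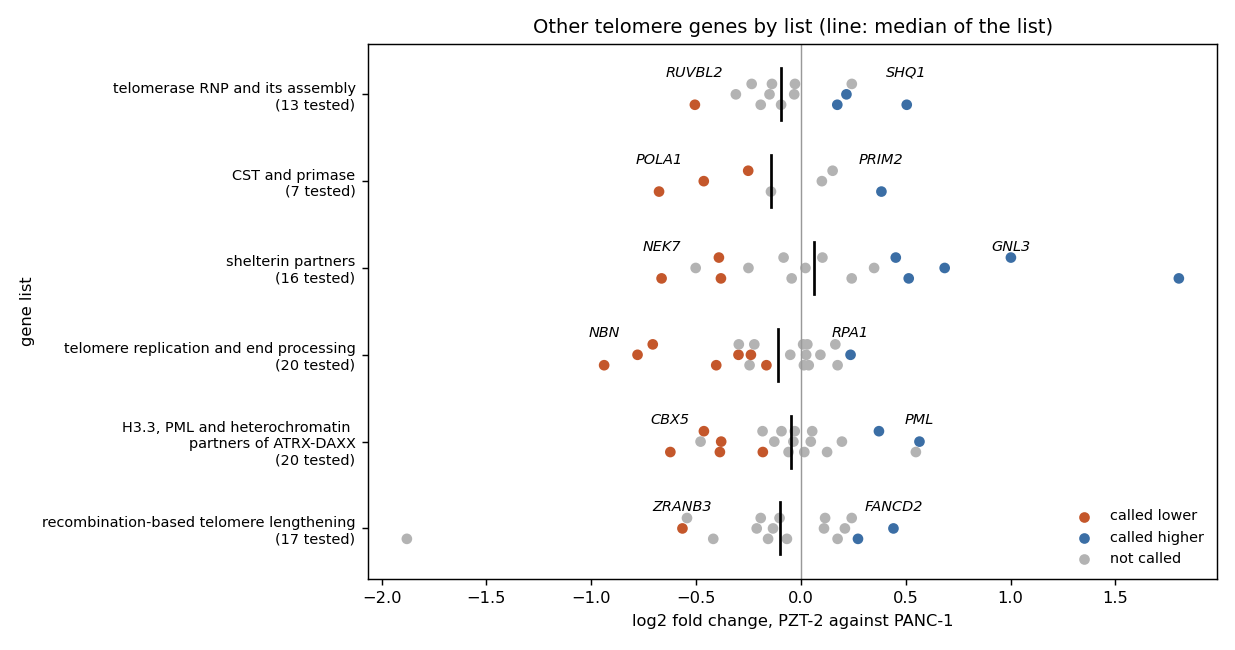
Log2 fold change, PZT-2 against PANC-1, of the 93 genes tested in 6 lists of other telomere genes, with the median of each list as a line; the named genes are the largest fall and rise called among genes with a mean of at least 100 normalized counts. Falls outnumber rises in telomere replication and end processing, 7 to 1, though both limma fits gave 3 falls there. Among shelterin partners 5 rose and 3 fell. Over all genes tested 13.7% were called lower and 14.7% higher.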

How the data were processed

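Paired reads were made from 2 PANC-1 and 2 PZT-2 libraries. The authors trimmed reads (Trim Galore 0.4.1), quantified transcripts (kallisto 0.43.0) and compared the lines with sleuth 0.29.0. The submitters' processing notes name hg19, and the release of the transcript index is not given in the sources used here. The deposited estimated counts carry a library factor (1.16, 0.935, 1.03 and 1.01), which was undone, as 49.0% to 49.7% of low values were then whole within 0.01, against 0.635% to 2.71% before. The authors' fold changes, p-values and q-values were not used, and TPM was recomputed from counts and the deposited effective lengths.

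Counts were rounded and summed per gene, by the table's symbol or, for 3925 transcripts, by accession, and 103 transcripts (0.0467% of counts) stayed unnamed. Genes that reached 5 counts in 2 or more libraries were tested with edgeR 4.0.16 in R 4.3.3 (TMM factors, quasi-likelihood test, Benjamini-Hochberg over 15101 genes, threshold 0.05), and the fit was tested on simulated data. Normalized counts are scaled to the mean library. Alternatives used DESeq2 1.42.0, limma 3.58.1, other filters, factors and sums, and each library left out. The named genes were every member, H2AFZ and H2AFV and, per list, the largest called fall and rise with a mean of at least 100 normalized counts and no overlap between the lines, plus every call of the telomerase and CST lists. The members and lists were chosen with earlier results of these data known. Promoters come from RefSeq on GRCh38.p14, chromosomes and overlaps from an annotation of GRCh38.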

Additional observations from a re-analysis of the deposited data

How the results depend on the processing

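The genes called numbered 4291, of which 2069 were lower and 2222 higher, with 1866 to 4698 when 1 library was left out and 2130 when the most abundant transcript stood for a gene. In limma on log2(TPM + 1) the split was 1446 lower and 2370 higher, and with a pseudocount of 0.1 it was 1402 and 2309. Members called lower numbered 3, with 1 to 5 when 1 library was left out and 1 from the most abundant transcript alone. Members called higher numbered 0, with 0 to 2 when 1 library was left out. They numbered 1 with at least 10 counts in all 4 libraries, with the robust prior and with table symbols alone (TERF2IP each time) and in both limma fits (DAXX). In the lists, calls lower numbered 20, with 11 in both limma fits and from the most abundant transcript and 8 to 22 when 1 library was left out. Calls higher numbered 14, with 6 from the most abundant transcript and 5 to 16 when 1 library was left out. The member transcripts called went from 0 to 2 with DESeq2.

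Replicates with the same number did not deviate together over all genes tested (correlation -0.0206). A single correlation over all genes cannot show what the numbers share in single genes, which was not tested. With the replicate block 3706 genes were called, TINF2, ATRX and DKC1 lower and TERF2IP higher (1 member, adjusted p = 0.0394). Among the 10 members, the estimates that changed sign were those of POT1, -0.38 to 0.082 over the libraries left out (the higher without PANC-1 replicate 2), and of TERT. The TERT log2 fold change was 0.14 and 1.23 in limma, 0.38 under the block and -1.32 to 8.08 over the libraries left out, values that depend on the prior count and are no bounds. Beyond the construction of the alternatives, the cause was not tested. With 2 libraries per line and 1 clone, these limits hold for every gene.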
